A study of Homo sapiens with 15 samples.

Results

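The SLC25 family holds the carriers of the inner mitochondrial membrane, and its transcripts were examined in LNCaP cells whose androgen signaling was blocked with enzalutamide. The members are the rows of the deposited table whose symbol is SLC25A followed by a number, leaving out SLC25A1 and SLC25A20, which gave 40 genes of 17272. LNCaP is an established human prostate cancer cell line that responds to androgen. All cells were kept for 2 days in medium with charcoal-stripped serum, which holds little steroid, and were collected 22 h after treatment. The R1881 + DMSO group, 10 libraries, received the synthetic androgen R1881 at 1 nM, and the R1881 + enzalutamide group, 5 libraries, received R1881 at 1 nM and the antiandrogen enzalutamide at 2 µM. Both groups therefore carry R1881, no group without R1881 was analysed here, and a single cell line stands for prostate cancer cells. The methods call the libraries biological replicates, and the labels do not say whether they came from separate cultures, so that p-values measure the spread between these libraries.

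Carriers of this family share a fold of repeated transmembrane helices and exchange metabolites between the cytosol and the mitochondrial matrix, since the inner membrane is closed to them otherwise. They move ADP and ATP, phosphate, amino acids, the acids of the citrate cycle, nucleotides, cofactors and iron, and several substrates are served by a pair or trio of closely related genes. Prostate epithelial cells are known for the secretion of citrate, so exchange across this membrane is a much studied trait of the tissue.

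The values are normalized signals per gene, called CPM in the methods, and the recovered depth was 15830745 to 24316740 reads per library with R1881 + DMSO and 21188661 to 25416052 with R1881 + enzalutamide. Of markers of LNCaP cells and androgen response, KLK2, TMPRSS2, FKBP5, KRT8 and KRT18 were lower with enzalutamide, with log2 fold changes between -4.99 and -2.05, and FOLH1 and HOXB13 higher (1.04 and 0.16). Of the markers of basal, stromal, endothelial and immune cells, KRT5, TP63, COL1A2, PECAM1 and PTPRC had no row, and COL1A1 held 4.38 to 8.43 CPM with R1881 + DMSO and 7.45 to 12.3 CPM with enzalutamide, and its part in the results was not tested. In 8 of the 15 libraries the deviations of genes from the group mean followed the GC content of the transcript (an absolute Spearman's rho of at least 0.5 across 11364 genes, which share a library and are not independent). They were high at GC-rich genes in 3 libraries, R1881 + DMSO replicates 5 and 6 and R1881 + enzalutamide replicate 2 (rho 0.65, 0.79 and 0.80), and low there in 5 libraries, R1881 + DMSO replicates 7, 9 and 10 and R1881 + enzalutamide replicates 1 and 4 (rho -0.72 to -0.54). As deviations are taken from the mean of the same group, a high library lowers the deviations of the others. The libraries high and low at GC-rich genes are therefore not independent sets. Counts of members are given also without the 3 and without all 8 of these libraries.

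More members were lower than higher with enzalutamide. Of the 40 members, 39 had a mean of at least 0.5 CPM and were tested, 19 were lower with enzalutamide, 7 were higher and 13 did not pass an adjusted p of 0.05 (limma, Benjamini-Hochberg adjustment over all 17046 genes tested). The lower members made up 48.7% of those tested, where 32.7% of all genes tested were lower, and the higher members 17.9%, where 29.8% of all genes were higher. The median log2 fold change was -0.15 over the members and -0.01 over all genes tested. In either direction 66.7% of the members passed, where 62.5% of all genes did. Changes were moderate: 8 members were lower and 1 was higher by at least 0.5 on the log2 scale, beside 11.8% and 11.3% of all genes, and no member reached a fitted log2 fold change of 1 in size, which 7.45% of all genes did, with SLC25A33 next to that limit and past it in some alternatives. The libraries of the treatments did not overlap for 13 of the lower and 5 of the higher members, beside 20.1% and 17.1% of all genes, or 46.2% of the members and 37.2% of all genes in either direction. With library totals set to 1000000, in place of the scaling the authors applied, 16 members were lower and 12 higher. Beside these counts stand 25.2% and 39% of all genes tested (64.1% in either direction). The split between directions thus depends on the scaling, among the members and also among all genes. Without the 3 libraries high at GC-rich genes, 19 members were lower and 8 higher, beside 34.2% and 30.8% of all genes tested. Without all 8 libraries that followed GC content, which leaves 5 with R1881 + DMSO and 2 with enzalutamide, 19 were lower and 7 higher, beside 30.8% and 27.3% of all genes, with SLC25A6 gained (0.28) and SLC25A51 lost (0.19, adjusted p = 0.0623, limma). Bulk RNA cannot tell a lower level in each cell from fewer cells of a state that expresses the gene.

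**Figure D1:**
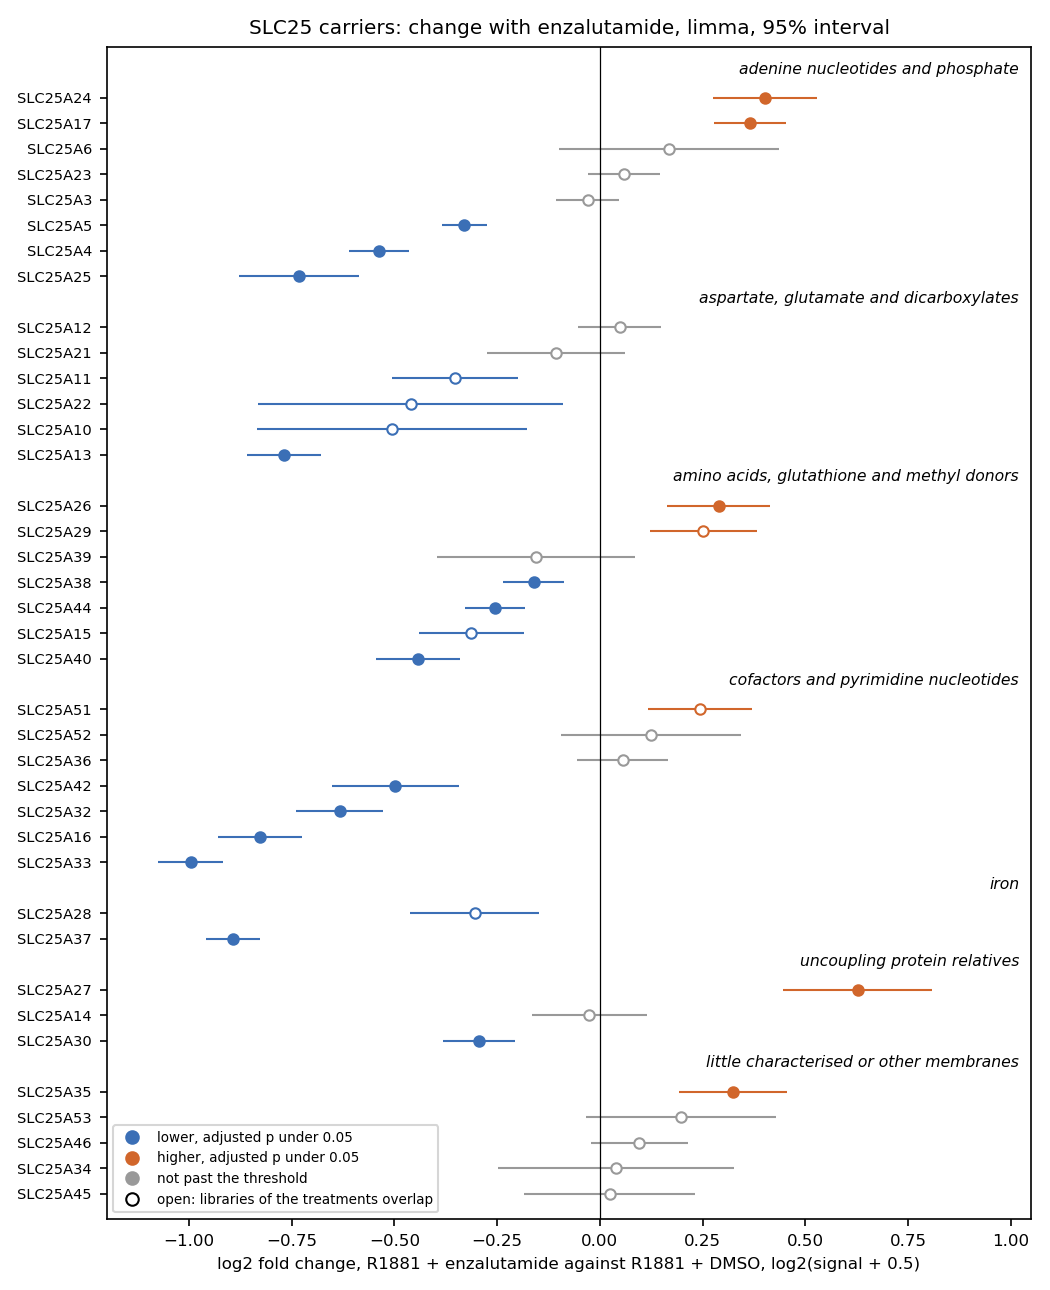
Log2 fold change with enzalutamide of the tested members reported by name (horizontal axis, log2(signal + 0.5) scale), grouped by substrate, with the 95% interval of limma as a line. Blue points were lower and orange points higher at an adjusted p under 0.05, gray points did not pass, and filled points mark members whose 10 R1881 + DMSO and 5 R1881 + enzalutamide libraries did not overlap. The lowest member was SLC25A33 at -0.995 and the highest SLC25A27 at 0.63.

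The lowest of all members, SLC25A33, has a close relative that did not move past the threshold with the scaling the authors applied. SLC25A33 and SLC25A36 import pyrimidine nucleotides into the matrix, where they serve mitochondrial DNA and RNA synthesis. SLC25A33 lies on the plus strand of chromosome 1 from 9539465 to 9585173 of GRCh38 and SLC25A36 on the plus strand of chromosome 3 from 140941830 to 140980995, each with 7 exons in its canonical transcript. SLC25A33 ranged from 83.3 to 95.3 CPM in the R1881 + DMSO libraries, with a median of 88.1, and held 48.1, 42.7, 44.1, 43.3 and 43.8 CPM in R1881 + enzalutamide replicates 1 to 5. All 5 libraries with enzalutamide lay far below the lowest R1881 + DMSO library, and the mean went from 89.0 ± 3.60 CPM (SD, n = 10) in R1881 + DMSO to 44.4 ± 2.13 CPM (SD, n = 5), a log2 fold change of -0.995 (SE, the standard error, 0.038, adjusted p = 2.51e-15, limma). SLC25A36 ranged from 44.4 to 55.4 CPM with R1881 + DMSO, with a median of 52.4, and held 56.6, 50.0, 52.8, 57.5 and 50.0 CPM with enzalutamide. Its groups overlapped, and its log2 fold change of 0.06 did not pass the threshold, with a 95% interval from -0.06 to 0.17. With library totals set to 1000000 SLC25A36 passed as higher. The log2 ratio of SLC25A33 to SLC25A36 within a library (0.5 added to each value), which depends little on the scaling, fell from 0.79 ± 0.080 (SD, n = 10) to -0.26 ± 0.084 (SD, n = 5), a difference of -1.05 (exact permutation test, p = 0.000333 and 0.000666 after Benjamini-Hochberg adjustment over 18 pairs). All permutation tests of ratios are two-sided, those over the 15 libraries enumerate 3003 ways to regroup them, and 0.000333 is the smallest p they can give. Of the 18 pairs, 14 passed and 9 did not overlap between treatments. Both counts include the pair of SLC25A18, whose low expression kept it out of the limma test. In limma 62.5% of single genes passed, and 37.2% did not overlap between treatments. These shares are no baseline for the pairs, since a ratio can move with either gene and some pairs share a gene. No share was computed for pairs of other genes, so nothing is read from the counts of pairs. Per kilobase of canonical transcript, SLC25A33 made up 71.9% ± 1.14 (SD, n = 10) of the pair with R1881 + DMSO and 55.1% ± 1.45 (SD, n = 5) with enzalutamide. These shares, like the others below, rest on canonical lengths, here 3865 bases for SLC25A33 and 5697 for SLC25A36. Their coding lengths are 963 and 933 bases, and without division by length SLC25A36 had the higher mean with enzalutamide (53.4 CPM).

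The bases before the starts of these genes are shown because the carriers of this pair differed in response while their windows hold some of the same motifs. The windows are from RefSeq on GRCh38.p14 and end where the first annotated exon begins, chr1:9539215-9539464 for SLC25A33 (250 bases) and chr3:140941586-140941829 for SLC25A36 (244 bases), both on the plus strand and written 5′ to 3′. Capitals mark matches to the E-box CACGTG, the cyclic AMP response element TGACGTCA and the androgen response half-site AGAACA, searched on both strands.
SLC25A33: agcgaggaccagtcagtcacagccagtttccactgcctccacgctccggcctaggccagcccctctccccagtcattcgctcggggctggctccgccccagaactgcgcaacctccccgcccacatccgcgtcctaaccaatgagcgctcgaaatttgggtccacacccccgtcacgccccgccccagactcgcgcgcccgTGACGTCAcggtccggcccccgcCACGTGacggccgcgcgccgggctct
SLC25A36: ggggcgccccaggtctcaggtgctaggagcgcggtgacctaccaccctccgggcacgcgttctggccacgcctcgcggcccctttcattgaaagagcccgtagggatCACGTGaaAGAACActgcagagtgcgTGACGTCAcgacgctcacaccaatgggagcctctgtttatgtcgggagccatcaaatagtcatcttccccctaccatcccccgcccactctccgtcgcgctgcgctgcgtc
Both windows hold an E-box and a cyclic AMP response element. The window of SLC25A36, which did not pass the threshold with the scaling the authors applied, also holds the androgen response half-site. A window was at hand for 34 of the 40 members, 43 windows in all, some of them for alternative starts of the same gene. Of these windows 16.3% held an E-box, 6.98% a cyclic AMP response element and 9.3% the half-site, beside 6.34%, 1.65% and 12.4% of all 35115 windows of 250 bases, which also include windows of noncoding genes. The complete androgen response element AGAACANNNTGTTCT and the NRF1 element GCGCATGCGC had no match in the windows of members, beside 0.00285% and 1.03% of all windows. The ETS element CCGGAAGT was in 9.3% of the windows of members and in 3.42% of all windows. A match says only that these letters are in the window.

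Among the other cofactor carriers the lower members described here were carriers of coenzyme A and folate. Of 8 members of this group, which includes the pyrimidine carriers, 5 were lower, 1 was higher and 2 did not pass. Beside this count and those of the other groups stand 32.7% of all genes lower and 29.8% higher, and with 2 to 8 members a group nothing is read from its share. SLC25A16, a candidate coenzyme A carrier, ranged from 112 to 146 CPM with R1881 + DMSO (median 135) and held 77.3, 71.0, 73.1, 76.8 and 76.8 CPM with enzalutamide. The groups were far apart, with means of 134 ± 9.81 CPM (SD, n = 10) and 75.0 ± 2.80 CPM (SD, n = 5) and a log2 fold change of -0.83 (SE 0.049, adjusted p = 5.13e-12, limma). SLC25A42, which imports coenzyme A, held 16.4 to 23.6 CPM with R1881 + DMSO (median 18.8) and 12.2, 15.4, 13.2, 12.8 and 13.1 CPM with enzalutamide, again without overlap, and its log2 fold change was -0.50. The ratio of SLC25A16 to SLC25A42 differed by -0.33 on the log2 scale (exact permutation test, p = 0.0226, 0.0291 after adjustment), but it did not pass in every alternative, the highest adjusted p being 0.312. SLC25A32, the carrier of folate and of FAD, ranged from 28.7 to 34.5 CPM with R1881 + DMSO (median 31.6) and held 20.9, 18.6, 20.8, 19.0 and 21.7 CPM with enzalutamide. It went from 31.6 ± 1.81 CPM (SD, n = 10) in R1881 + DMSO to 20.2 ± 1.34 CPM (SD, n = 5), a log2 fold change of -0.63 (SE 0.051, adjusted p = 7.02e-10, limma). SLC25A51, which imports NAD+, was higher, with 12.3 ± 0.924 CPM with R1881 + DMSO (SD, n = 10) and 14.6 ± 0.834 CPM with enzalutamide (SD, n = 5) and a log2 fold change of 0.24 (adjusted p = 0.00148, limma), a call lost without all 8 libraries that followed GC content. Its near copy SLC25A52 held 2.21 ± 0.365 CPM and 2.45 ± 0.362 CPM and had a log2 fold change of 0.12 (95% interval from -0.09 to 0.34). Reads of these near-identical genes can be split between them, and the values of each are uncertain.

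Both iron carriers were lower, and by unequal amounts. SLC25A37 is the mitoferrin best known from red cell precursors and SLC25A28 its widely expressed relative, and both bring iron to the matrix for heme and iron-sulfur clusters. SLC25A37 lies on the plus strand of chromosome 8 from 23528956 to 23575463 of GRCh38. It ranged from 144 to 160.3 CPM with R1881 + DMSO (median 154), and R1881 + enzalutamide replicates 1 to 5 held 82.3, 81.3, 80.5, 83.0 and 84.5 CPM. The libraries with enzalutamide lay within a narrow band far below the R1881 + DMSO libraries, and the mean went from 153 ± 5.59 CPM (SD, n = 10) in R1881 + DMSO to 82.3 ± 1.57 CPM (SD, n = 5), a log2 fold change of -0.89 (SE 0.032, adjusted p = 8.47e-16, limma). SLC25A28 was weakly expressed, with 7.07 to 9.79 CPM with R1881 + DMSO (median 8.91) and 7.21, 6.84, 7.60, 6.60 and 6.67 CPM with enzalutamide. Its groups overlapped and its log2 fold change was -0.30 (SE 0.075, adjusted p = 0.00148, limma). The log2 ratio of SLC25A28 to SLC25A37 rose by 0.59 (exact permutation test, p = 0.000333, 0.000666 after adjustment over 18 pairs), and per kilobase SLC25A28 made up 14.9% ± 1.53 (SD, n = 10) of the pair with R1881 + DMSO and 20.6% ± 1.23 (SD, n = 5) with enzalutamide. The share depends on the length used, since the canonical transcripts have 1526 and 4672 bases and the coding sequences 1092 and 1014. Averaged over all libraries, SLC25A28 and SLC25A37 held 5.36 and 27.8 CPM per kilobase of canonical transcript. Per kilobase of coding sequence they held 7.49 and 128 CPM.

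**Figure D2:**
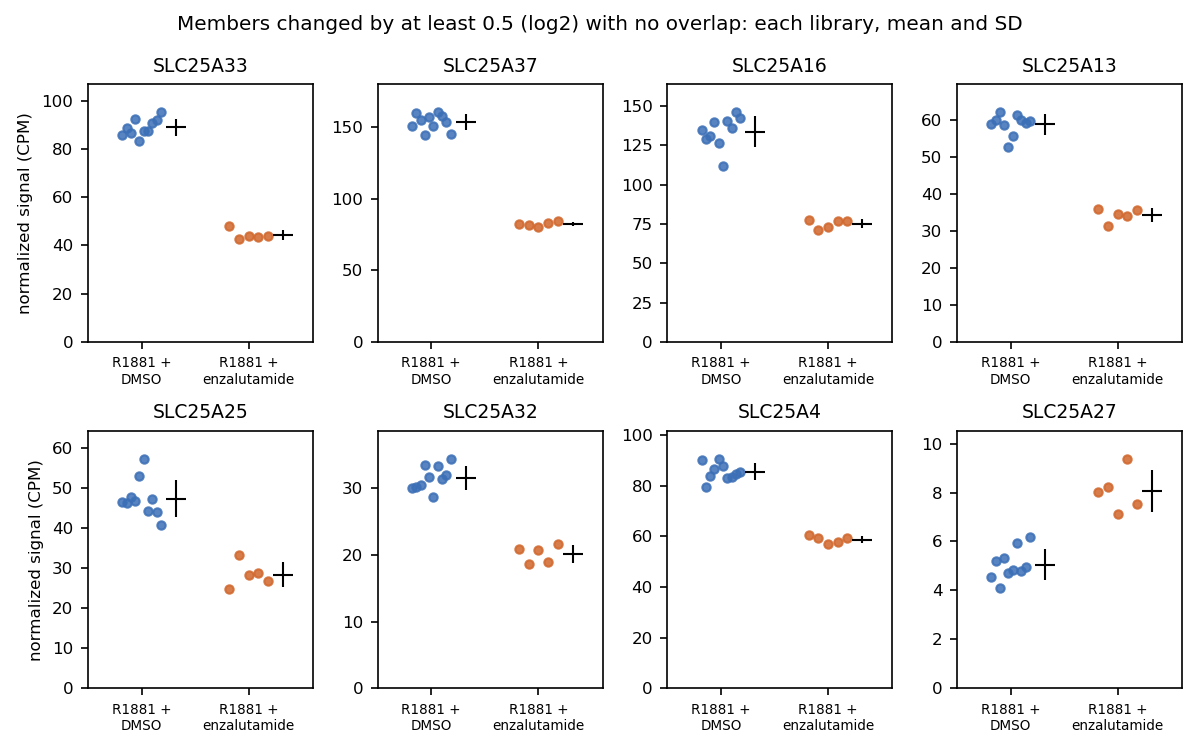
Normalized signal (CPM, vertical axes from 0) of the 8 members that changed by at least 0.5 on the log2 scale without overlap, 1 panel each. Blue points are the 10 R1881 + DMSO libraries, orange points the 5 R1881 + enzalutamide libraries, and black marks the mean with the SD. In 7 panels every orange point lies below every blue point, as for SLC25A37 with 84.5 CPM at most against 144 CPM at least, and in the panel of SLC25A27 every orange point lies above.

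Of the carriers of aspartate, glutamate and dicarboxylates, 4 of 6 tested members were lower and none was higher. SLC25A13 and SLC25A12 exchange aspartate for glutamate in the malate-aspartate shuttle, which moves reducing equivalents of NADH into the matrix. In GRCh38, SLC25A13 occupies bases 96120220 to 96322147 of chromosome 7 and SLC25A12 bases 171783405 to 171999859 of chromosome 2, each on the minus strand, and HAT1 overlaps SLC25A12 on the other strand. SLC25A13 ranged from 52.6 to 62.2 CPM with R1881 + DMSO (median 59.5) and held 35.9, 31.4, 34.6, 34.1 and 35.8 CPM with enzalutamide. Its groups were well apart, with means of 58.9 ± 2.76 CPM (SD, n = 10) and 34.4 ± 1.82 CPM (SD, n = 5) and a log2 fold change of -0.77 (SE 0.043, adjusted p = 1.75e-12, limma). SLC25A12 ranged from 17.6 to 20.5 CPM with R1881 + DMSO (median 19.9) and held 20.5, 19.95, 19.7, 20.8 and 19.9 CPM with enzalutamide, within a narrow band that overlapped. Its log2 fold change of 0.05 had a 95% interval from -0.05 to 0.15. With library totals set to 1000000 it was 0.14 and passed (adjusted p = 0.0109, limma). The log2 ratio of SLC25A12 to SLC25A13 rose by 0.82 (exact permutation test, p = 0.000333, 0.000666 after adjustment), and per kilobase SLC25A12 made up 20.9% ± 0.548 (SD, n = 10) of the pair with R1881 + DMSO and 31.95% ± 1.21 (SD, n = 5) with enzalutamide.

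SLC25A11 exchanges oxoglutarate for malate in the same shuttle, and SLC25A10 exchanges dicarboxylates for phosphate. SLC25A11 held 115 to 160.2 CPM with R1881 + DMSO (median 129.8) and 91.3, 121, 105, 90.8 and 105 CPM with enzalutamide, so that the highest library with enzalutamide, replicate 2, lay within the range of R1881 + DMSO. Its log2 fold change was -0.35 (SE 0.073, adjusted p = 0.000284, limma). SLC25A10 ranged from 14.9 to 30.3 CPM with R1881 + DMSO (median 18.2) and held 8.80, 19.6, 14.4, 10.7 and 15.6 CPM with enzalutamide, with a log2 fold change of -0.51 (SE 0.158, adjusted p = 0.00847, limma). The highest libraries of SLC25A10 in each treatment were R1881 + DMSO replicate 6 and R1881 + enzalutamide replicate 2, both high at GC-rich genes, and its lowest libraries with enzalutamide were replicates 1 and 4, both low there. Without the 3 libraries high at GC-rich genes its log2 fold change was -0.52 and that of SLC25A11 -0.36, and without all 8 libraries that followed GC content -0.30 and -0.31, each past the threshold. The ratio of SLC25A10 to SLC25A11 differed by -0.15 between treatments and did not pass (exact permutation test, p = 0.2, also 0.2 after adjustment). SLC25A22, the main glutamate carrier, spread widely, from 17.5 to 44.2 CPM with R1881 + DMSO (median 23.01), and held 12.01, 27.1, 18.8, 15.5 and 19.0 CPM with enzalutamide, so that its groups overlapped. Its log2 fold change of -0.46 (adjusted p = 0.0300, limma) no longer passed without R1881 + enzalutamide replicate 1 (adjusted p = 0.128) or replicate 4 (adjusted p = 0.0785), with DESeq2 (adjusted p = 0.0667) or with the quasi-likelihood test of edgeR (adjusted p = 0.0675), nor with library totals set to 1000000 (adjusted p = 0.0887, limma) or against R1881 + DMSO libraries 51 to 55 alone (-0.30, adjusted p = 0.103, limma). Without the 3 libraries high at GC-rich genes it was -0.45 (adjusted p = 0.000443, limma) and without all 8 that followed GC content -0.31 (adjusted p = 0.00297, limma). Its relative SLC25A18 was barely expressed and was not tested, with 2 to 23 reads in a library. It held 0.135 to 0.450 CPM with R1881 + DMSO and 0.512, 1.07, 0.819, 1.03 and 0.588 CPM with enzalutamide, and these did not overlap. With no filter on low values its log2 fold change was 0.72 (SE 0.131, adjusted p = 7.29e-05, limma), and its log2 ratio to SLC25A22 differed by 1.18 (exact permutation test, p = 0.000333, 0.000666 after adjustment). The 0.5 added to each value exceeds every R1881 + DMSO value of SLC25A18, and over the alternatives this difference ran from 0.93 to 1.70. SLC25A21, the oxodicarboxylate carrier, had a log2 fold change of -0.11 (95% interval from -0.28 to 0.06), which was -0.25 against R1881 + DMSO libraries 51 to 55 alone (adjusted p = 0.00697, limma) and 0.036 against libraries 71 to 75 alone.

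The carriers of adenine nucleotides moved in both directions, with 3 of 8 members of this group lower, 2 higher and 3 that did not pass. SLC25A4, SLC25A5 and SLC25A6 are the adenine nucleotide translocases, which export ATP in exchange for ADP. SLC25A4 ranged from 79.3 to 90.6 CPM with R1881 + DMSO (median 85.1) and held 60.3, 59.1, 57.0, 57.8 and 59.1 CPM with enzalutamide, well below. It went from 85.5 ± 3.43 CPM (SD, n = 10) in R1881 + DMSO to 58.7 ± 1.29 CPM (SD, n = 5), a log2 fold change of -0.54 (SE 0.035, adjusted p = 2.07e-11, limma). SLC25A5 was far more abundant, with 397 to 421 CPM with R1881 + DMSO (median 410.1) and 338, 328, 334, 316 and 316 CPM with enzalutamide, and its groups did not overlap either. Its log2 fold change was -0.33 (SE 0.026, adjusted p = 6.78e-10, limma). SLC25A6 ranged from 416 to 831 CPM with R1881 + DMSO (median 503) and held 477, 785, 608, 537 and 625 CPM with enzalutamide, and the highest library of each treatment was 1 of those high at GC-rich genes. Its log2 fold change of 0.17 did not pass (95% interval from -0.10 to 0.44), and it passed without R1881 + DMSO replicate 6 (0.24, adjusted p = 0.0328, limma), without the 3 libraries (0.19, adjusted p = 0.00819, limma), without all 8 (0.28, adjusted p = 2.12e-05, limma) and against R1881 + DMSO libraries 51 to 55 alone (0.30, adjusted p = 0.0117, limma). Against libraries 71 to 75 alone it was only 0.04 (adjusted p = 0.843, limma). Without R1881 + enzalutamide replicate 2 it was 0.07 (adjusted p = 0.651, limma). SLC25A6 lies in the region shared by the X and Y chromosomes and, like SLC25A5, has processed pseudogenes, as does SLC25A3, so reads could be lost or misplaced for these genes. Within a library SLC25A4 fell more than SLC25A5, with a difference in log2 ratio of -0.21 (exact permutation test, p = 0.000333, 0.000666 after adjustment), and SLC25A5 was lower relative to SLC25A6, with a difference of -0.50 (p = 0.00899, 0.0124 after adjustment, same exact permutation test), a difference that did not pass in every alternative, the highest adjusted p being 0.122. The ratio of SLC25A4 to SLC25A6 differed by -0.71 (exact permutation test, p = 0.000999, 0.0018 after adjustment). Per kilobase, SLC25A6 made up 52.3% ± 5.04 (SD, n = 10) of the trio with R1881 + DMSO and 61.0% ± 4.59 (SD, n = 5) with enzalutamide, SLC25A5 44.9% ± 4.82 and 37.1% ± 4.37, and SLC25A4 2.76% ± 0.245 and 1.97% ± 0.229. The canonical transcript of SLC25A4 has 4415 bases, those of SLC25A5 and SLC25A6 have 1307 and 1451, and each gene has 894 coding bases. Per kilobase of coding sequence, averaged over all libraries, SLC25A4 held 85.6 CPM, SLC25A5 428 and SLC25A6 630. The share of SLC25A4 thus depends on the length used.

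SLC25A23, SLC25A24 and SLC25A25 are calcium-regulated carriers that exchange ATP-Mg for phosphate and so set the adenine nucleotide pool of the matrix, and they moved in different directions. SLC25A25 ranged from 40.8 to 57.4 CPM with R1881 + DMSO (median 46.7) and held 24.9, 33.2, 28.2, 28.7 and 26.8 CPM with enzalutamide, without overlap. It went from 47.4 ± 4.70 CPM (SD, n = 10) in R1881 + DMSO to 28.4 ± 3.10 CPM (SD, n = 5), a log2 fold change of -0.73 (SE 0.070, adjusted p = 1.06e-08, limma). SLC25A24 rose, from 22.5 to 29.5 CPM (median 26.1) with R1881 + DMSO to 35.2, 32.5, 35.3, 36.5 and 33.5 CPM with enzalutamide. Its groups did not overlap and its log2 fold change was 0.40 (SE 0.061, adjusted p = 7.74e-06, limma). SLC25A23, the most abundant of the trio, held 99.2 to 121 CPM with R1881 + DMSO (median 111) and 115, 122, 112, 108 and 111 CPM with enzalutamide. Its treatments overlapped, and its log2 fold change of 0.06 did not pass (95% interval from -0.03 to 0.15). The log2 ratio of SLC25A24 to SLC25A25 was higher with enzalutamide by 1.13, and that of SLC25A23 to SLC25A25 by 0.79 (exact permutation test, p = 0.000333 and 0.000666 after adjustment for each). The first of these ratios could not overlap, since SLC25A24 rose and SLC25A25 fell without overlap, and its p adds nothing to their single calls. The ratio of SLC25A23 to SLC25A24 differed by -0.34 (exact permutation test, p = 0.00466, 0.00699 after adjustment, 0.0571 at most over the alternatives). Per kilobase SLC25A25 made up 26.8% ± 1.51 (SD, n = 10) of the trio with R1881 + DMSO and 16.8% ± 1.31 (SD, n = 5) with enzalutamide, and SLC25A24 12.1% ± 1.56 and 16.6% ± 1.26.

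SLC25A17, a carrier of adenine nucleotides and cofactors in the peroxisomal membrane, was higher, with 72.8 to 88.9 CPM with R1881 + DMSO (median 81.9) and 108, 99.8, 109.8, 103 and 106 CPM with enzalutamide. The groups did not overlap and the log2 fold change was 0.37 (SE 0.042, adjusted p = 1.88e-07, limma). SLC25A3, the phosphate carrier that supplies ATP synthase, held 439 to 512 CPM with R1881 + DMSO (median 469) and 481, 430.4, 484, 458 and 455 CPM with enzalutamide, with wide overlap. Its log2 fold change of -0.03 had a 95% interval from -0.11 to 0.05, and its sign turned with library totals set to 1000000. Averaged over all libraries, the 5 members with the highest level per kilobase of canonical transcript were SLC25A6 with 388 CPM, SLC25A5 with 293, SLC25A39 with 87.7, SLC25A3 with 78.3 and SLC25A11 with 71.9. The place of SLC25A3 rests on its long canonical transcript of 5984 bases, and per kilobase of coding sequence SLC25A3 held 436 ± 19.95 CPM with R1881 + DMSO (SD, n = 10) and 427 ± 20.3 CPM with enzalutamide (SD, n = 5). On that scale SLC25A5 held 459 ± 8.28 CPM and 365 ± 11.3 CPM, above SLC25A3 with R1881 + DMSO and below it with enzalutamide, and SLC25A6 held 607 ± 137 CPM and 678 ± 129.6 CPM.

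**Figure D3:**
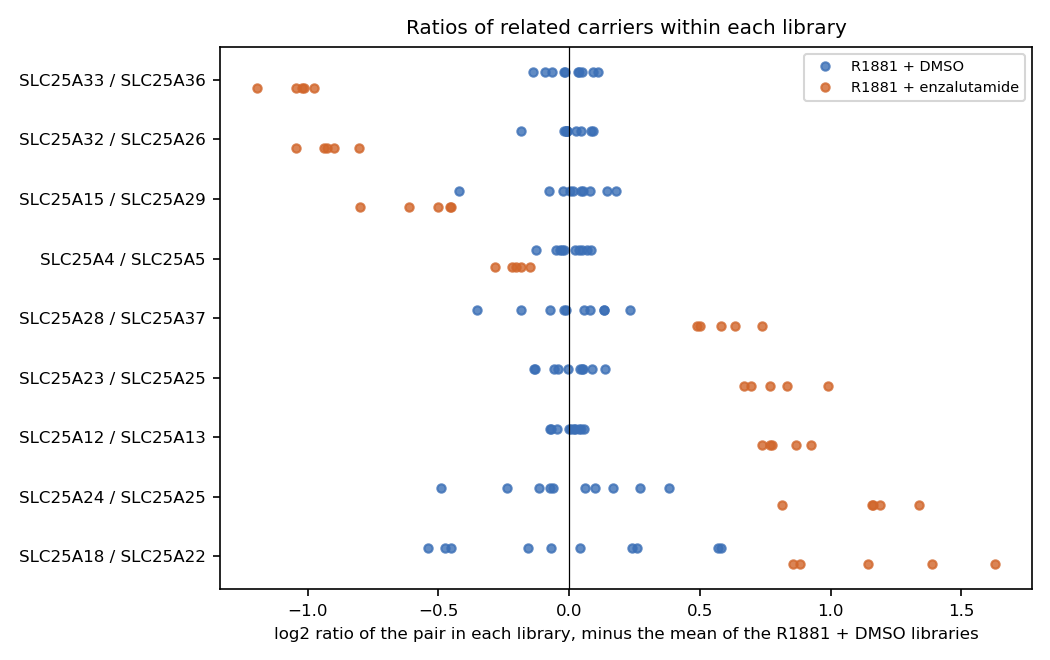
Log2 ratio of related carriers in each library (horizontal axis, minus the mean of the R1881 + DMSO libraries) for the 9 of 18 pairs whose treatments did not overlap. Blue points are R1881 + DMSO libraries and orange points R1881 + enzalutamide libraries. The ratio of SLC25A33 to SLC25A36 moved by -1.05 and that of SLC25A24 to SLC25A25 by 1.13, and the widely scattered ratio of SLC25A18 to SLC25A22 rests on 2 to 23 reads of SLC25A18 in a library.

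Of 7 carriers of amino acids, glutathione and methyl donors, 4 were lower, 2 were higher and 1 did not pass. SLC25A40 and SLC25A39 import glutathione, the main thiol of the matrix. SLC25A40 held 35.6 to 41.6 CPM with R1881 + DMSO (median 37.6) and 28.3, 25.6, 28.8, 30.2 and 27.9 CPM with enzalutamide, without overlap, a log2 fold change of -0.44 (SE 0.049, adjusted p = 1.11e-07, limma). Its span overlaps DBF4 on the other strand. SLC25A39 held 111 to 208 CPM with R1881 + DMSO (median 136) and 104, 162, 129, 116 and 131 CPM with enzalutamide, with a log2 fold change of -0.15 that did not pass (95% interval from -0.40 to 0.09). The ratio of SLC25A39 to SLC25A40 differed by 0.29 and did not pass (exact permutation test, p = 0.121, 0.136 after adjustment), but passed without the 3 libraries high at GC-rich genes, also by 0.29 (p = 0.0283, 0.0339 after adjustment, same exact permutation test).

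SLC25A15 exchanges ornithine for citrulline, a step of the urea cycle, and SLC25A29 carries basic amino acids. SLC25A15 was lower, with 15.03 to 19.5 CPM with R1881 + DMSO (median 17.7) and 14.4, 12.8, 15.1, 12.9 and 14.8 CPM with enzalutamide and a log2 fold change of -0.31 (adjusted p = 0.000160, limma). SLC25A29 was higher, with 30.0 to 41.1 CPM with R1881 + DMSO (median 33.4) and 39.6, 43.5, 39.9, 38.4 and 39.2 CPM with enzalutamide and a log2 fold change of 0.25 (adjusted p = 0.00159, limma). Both genes overlapped between treatments, yet their ratio did not, and it differed by -0.56 on the log2 scale (exact permutation test, p = 0.000333, 0.000666 after adjustment). SLC25A44, which imports branched-chain amino acids, had a log2 fold change of -0.26, and SLC25A38, which imports glycine for heme synthesis, of -0.16, both without overlap. The call of SLC25A38 was lost with library totals set to 1000000 (log2 fold change -0.07, adjusted p = 0.113, limma). SLC25A26, the carrier of S-adenosylmethionine, was higher, with 11.2 to 14.3 CPM with R1881 + DMSO (median 12.3) and 15.6, 15.4, 15.8, 14.6 and 15.1 CPM with enzalutamide, without overlap and with a log2 fold change of 0.29 (SE 0.060, adjusted p = 0.000278, limma). Set against the folate carrier SLC25A32, whose substrate also feeds methyl group metabolism, it moved in the opposite direction, and the log2 ratio of SLC25A32 to SLC25A26 differed by -0.92 (exact permutation test, p = 0.000333, 0.000666 after adjustment). Neither gene overlapped between treatments and they moved in opposite directions, so their ratio could not overlap either. Its p adds nothing to the calls of the single genes.

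The relatives of the uncoupling proteins split. SLC25A27, known from brain and best studied in neurons, had the largest increase of the tested members, from 4.09 to 6.17 CPM (median 4.88) with R1881 + DMSO to 8.01, 8.23, 7.14, 9.39 and 7.53 CPM with enzalutamide. No libraries overlapped, and the mean rose from 5.05 ± 0.629 CPM (SD, n = 10) in R1881 + DMSO to 8.06 ± 0.855 CPM (SD, n = 5), a log2 fold change of 0.63 (SE 0.087, adjusted p = 2.41e-06, limma). SLC25A30, a carrier described in kidney, was lower, with 69.5 to 79.7 CPM with R1881 + DMSO (median 74.1) and 65.3, 55.3, 60.4, 62.2 and 61.7 CPM with enzalutamide, and a log2 fold change of -0.29 (SE 0.042, adjusted p = 3.35e-06, limma). SLC25A14 held 10.0 to 12.9 CPM with R1881 + DMSO (median 11.0) and 11.3, 9.54, 11.0, 12.5 and 10.3 CPM with enzalutamide, with overlap and a log2 fold change of -0.03 (95% interval from -0.17 to 0.11). The ratio of SLC25A14 to SLC25A30 rose by 0.27 (exact permutation test, p = 0.002, 0.00327 after adjustment).

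Of 5 members that are little characterised or lie in another membrane, SLC25A35 was higher and 4 did not pass. SLC25A35 held 6.53 to 8.28 CPM with R1881 + DMSO (median 7.08) and 9.26, 9.35, 9.73, 8.40 and 9.21 CPM with enzalutamide, without overlap, and its log2 fold change was 0.32 (SE 0.063, adjusted p = 0.000139, limma). SLC25A46, a protein of the outer mitochondrial membrane that takes part in its dynamics, held 53.7 ± 4.26 CPM with R1881 + DMSO (SD, n = 10) and 57.4 ± 4.02 CPM with enzalutamide (SD, n = 5), with a log2 fold change of 0.10 (95% interval from -0.02 to 0.21). SLC25A45, SLC25A34 and SLC25A53 had log2 fold changes of 0.02, 0.04 and 0.20, and SLC25A34 held only 8 to 30 reads in a library. SLC25A46 passed without R1881 + enzalutamide replicate 2 (0.14, adjusted p = 0.0487, limma) and SLC25A53 without R1881 + enzalutamide replicate 5 (0.30, adjusted p = 0.0191, limma). Both also passed with library totals set to 1000000, and SLC25A46 passed with the quasi-likelihood test of edgeR. The ratio of SLC25A34 to SLC25A35 did not pass (difference -0.29, exact permutation test, p = 0.0673, 0.0807 after adjustment), nor did that of SLC25A51 to SLC25A52 (difference 0.12, p = 0.172, 0.182 after adjustment, same exact permutation test).

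In the labels, numbers 51 to 55 and 71 to 75 belong to R1881 + DMSO and 81 to 85 to R1881 + enzalutamide, without giving the meaning of the numbers, so a difference between series cannot be told apart from the treatment. Between the R1881 + DMSO series, 2 of 39 members differed at an adjusted p under 0.05 from limma, where 3.29% of all genes tested did. They were SLC25A21, with a difference of -0.29 on the log2 scale for libraries 71 to 75 against 51 to 55, and SLC25A24 with -0.22. Against libraries 51 to 55 alone the log2 fold change of SLC25A24 with enzalutamide was 0.29 and against libraries 71 to 75 alone 0.51. For SLC25A33 these values were -1.02 and -0.97, and for SLC25A37 -0.87 and -0.92.

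Spread within a treatment followed the GC content of the members' transcripts. The 13 members with a mean of at least 5 CPM and a GC content of 55% or more had coefficients of variation from 5.62% to 30.6% over the R1881 + DMSO libraries (median 10.7%), and the 23 members below 55% from 1.80% to 13.2% (median 5.80%). After a correction of each library for its trend with GC content, 21 members were lower and 9 higher, beside 39.2% and 33.2% (72.4% in either direction) of the 14633 genes with a GC value, and SLC25A6, SLC25A21, SLC25A23 and SLC25A39 passed in addition. The part of GC content in the overlap of SLC25A10, SLC25A11 and SLC25A22 between treatments was not tested.

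**Figure D4:**
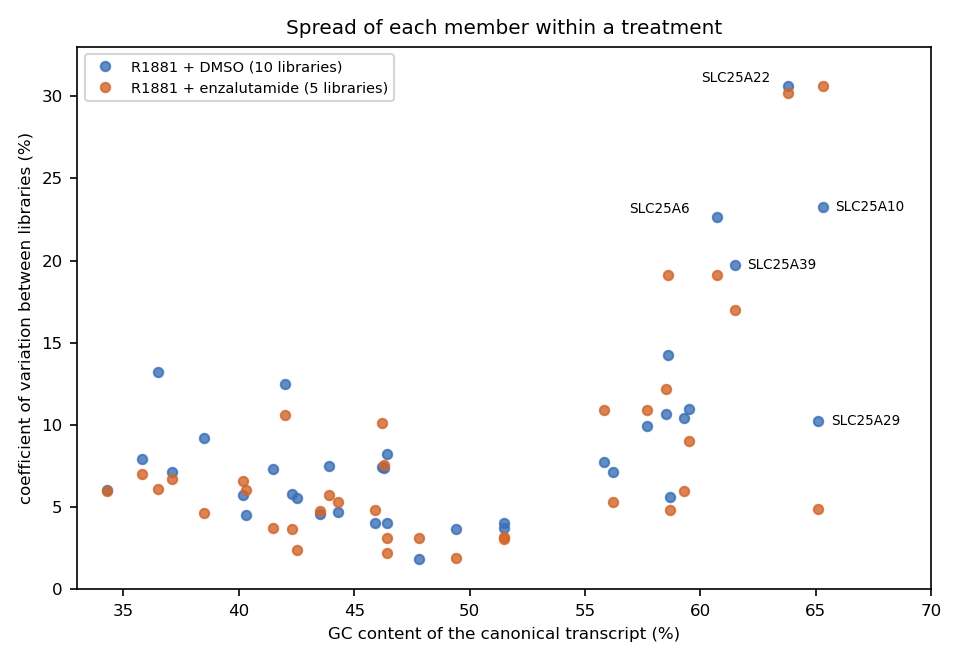
Coefficient of variation between libraries of the same treatment (vertical axis, percent) against the GC content of the canonical transcript (horizontal axis, percent) for the 36 members with a mean of at least 5 CPM. Blue points are the 10 R1881 + DMSO libraries and orange points the 5 R1881 + enzalutamide libraries. The members with the widest spread, among them SLC25A22 at 30.6% with R1881 + DMSO, are GC-rich, while members below 55% GC stay at 13.2% or less.

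Genes around the family were counted from lists written by hand. Of the machinery that imports carriers into the inner membrane, 7 of 13 tested genes were lower and 1 was higher (median log2 fold change -0.23), the lowest being TOMM40, the channel of the outer membrane, with -0.62 and the highest TOMM7 with 0.16. Of 24 other mitochondrial transporters 13 were lower and 7 higher (median -0.17). The lowest of these was MPC2, a subunit of the mitochondrial pyruvate carrier, which held 681 ± 35.7 CPM (SD, n = 10) with R1881 + DMSO and 183 ± 8.33 CPM (SD, n = 5) with enzalutamide (log2 fold change -1.89), and the highest was MCU, the calcium uniporter, with 0.98. Of the 4 enzymes of the malate-aspartate shuttle 2 were lower and none higher, from GOT1 with -0.70 to MDH1 with -0.06, the latter not past the threshold. Of 9 regulators of mitochondrial biogenesis 5 were lower and 1 higher, from PPRC1 with -0.55 to TFB1M with 0.29. Beside these counts stand the 32.7% of all genes tested that were lower and the 29.8% that were higher.

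By the annotation, 12 members overlap a protein-coding gene on the other strand and 3 on the same strand. Overlap was taken over whole gene spans, so the exons need not overlap. The libraries were made with a stranded kit, but no source used here gives the strand setting of the counting. The counts of members with a neighbor on the other strand, among them SLC25A40, SLC25A11, SLC25A32, SLC25A25, SLC25A26 and SLC25A35, could therefore include reads of the neighbor. For SLC25A10, SLC25A32 and SLC25A51, which overlap a gene on the same strand, no strand setting separates the reads. Of the 46 family members in the list of roles, 6 had no row under their symbol and were not analysed here.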

How the data were processed

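Polyadenylated RNA of LNCaP cells was sequenced in 15 libraries, grouped by their labels into 10 with R1881 + DMSO and 5 with R1881 + enzalutamide. The methods text gives these group sizes the other way round. Per the labels and the submitters' processing notes, bcl2fastq 2.17, STAR, Subread and featureCounts were used with GRCh38. For their other versions, the annotation, the strand setting and the filter behind the 17272 rows, nothing is given in the sources used here. The authors deposited a normalized signal per gene, called CPM in the methods, whose column sums range from 985580 to 1078567. Whole reads were recovered from it (100% of values within 0.01 reads), and 0 columns lacked a sample. All 55 pairs of libraries within a treatment differed beyond sampling noise (lowest chi-square 1.63 per degree of freedom), which does not tell separate cultures from repeat preparations.

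Values were tested on log2(signal + 0.5) with limma 3.58.1 in R 4.3.3 (mean-variance trend) over the 17046 genes with a mean of at least 0.5, with Benjamini-Hochberg adjustment and a threshold of 0.05. A fold change on this scale understates the change of low genes. Ratios of related carriers were compared with an exact permutation test over libraries. edgeR 4.0.16 and DESeq2 1.42.0 were run on the recovered reads as alternatives, beside other pseudocounts, filters, scalings, a replicate block, each R1881 series alone, removal of the GC trend and leaving out each library. The limma fit and the permutation test were also run on simulated data, and the outcome is not reported here. Transcript GC content and length came from the GENCODE annotation on GRCh38, and 85.8% of symbols matched. The members, their roles, the related pairs and the gene lists were chosen with earlier results of these data known. Values per library or range are given for members past the threshold with a log2 change of at least 0.5 and no overlap, for members of pairs whose ratio passed and for the 5 highest per kilobase, the other members appear with a fold change or as counts, and of each other list the lowest and highest gene is named. The values of 1 member of the cofactor group, which is part of all counts, and of some markers are not reported here.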

Additional observations from a re-analysis of the deposited data

Results flagged for a closer look

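Of 80 groups of libraries examined, 1 for each member and treatment, 5 held a library farther from the rest than Dixon's 95% limit allows, and chance alone would flag about 4. SLC25A45 stood at 22.4 CPM in R1881 + enzalutamide replicate 2, where the nearest other library held 15.9 CPM, and SLC25A29 at 43.5 CPM in the same library, nearest 39.9 CPM. Both are GC-rich, and this library was high at GC-rich genes. SLC25A33 stood at 48.1 CPM in R1881 + enzalutamide replicate 1, nearest 44.1 CPM, still below every R1881 + DMSO library. SLC25A38 stood at 63.9 CPM in R1881 + enzalutamide replicate 4, nearest 68.0 CPM. SLC25A52 stood at 3.04 CPM in R1881 + DMSO replicate 4, nearest 2.37 CPM.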

How the results depend on the processing

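Of the 26 members past the threshold, 22 kept their call under all 15 alternatives and without each of the 15 libraries, and the exceptions include SLC25A22, SLC25A38 and SLC25A51. With library totals set to 1000000, 12 members were higher in place of 7, and the median of all genes moved from -0.01 to 0.07. The members gained as higher were SLC25A12, SLC25A23, SLC25A36, SLC25A46 and SLC25A53. Leaving out each library gave 17 to 19 lower members, 7 to 8 higher members and 13 to 15 pairs past the threshold. Members near 0 changed sign. SLC25A3 was 0.064 with totals set to 1000000, 0.014 with edgeR and 0.016 against libraries 71 to 75. SLC25A14 was 0.064 with these totals, 0.019 with edgeR, 0.023 without the 3 libraries high at GC-rich genes (chosen after seeing the data) and -0.073 to 0.020 when a library was left out. SLC25A21 was 0.036 and SLC25A34 -0.038 against libraries 71 to 75, and SLC25A34 ranged from -0.033 to 0.12 when a library was left out. SLC25A45 was -0.018 with the replicate block, -0.10 against libraries 71 to 75, -0.012 without the 3 libraries and -0.083 to 0.068 when a library was left out. Without all 8 libraries that followed GC content (chosen after seeing the data), SLC25A3 was 0.012, SLC25A12 -0.020, SLC25A34 -0.18, SLC25A36 -0.0042, SLC25A45 -0.046 and SLC25A52 -0.12. The cause of these changes was not tested. Depth limits SLC25A18, SLC25A34, SLC25A52 and SLC25A53, whose values rest on few reads.

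The replicate numbers did not pair the libraries: deviations of libraries with the same number correlated by -0.07 to 0.07, and 1 of 5 R1881 + enzalutamide libraries was closest to its own number. With the number as a block, 19 members were lower and 7 higher, with SLC25A39 gained (-0.21, adjusted p = 0.0325, limma) and 1 other member lost. R1881 + DMSO replicates 6 to 10 share no number with an enzalutamide library, so the effect with this block rests on replicates 1 to 5 of each group.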
